A study of Bos taurus with 4 samples.

Results

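Interferon-stimulated genes are the genes that cells switch on when interferon binds its receptors. The 52 genes of a list of this response were looked up as symbols in the annotation of a bovine oligonucleotide array, and 39 of them had at least 1 probe. They are 39 of the 12545 genes that the annotation names, and 87 probes represented them. Each gene was read from its brightest probe, the one with the highest mean log2 raw signal over both channels of all arrays. The 13 listed genes with no probe under their symbol, which are not analysed here, were *IRF7*, *IRF9*, *DDX58*, *DHX58*, *IFI16*, *OAS2*, *IFIT1*, *IFITM1*, *BST2*, *SAMHD1*, *XAF1*, *IFI27* and *PARP14*.

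The samples were inner cell masses (ICMs) of *Bos taurus* blastocysts produced in vitro, the group of cells from which the embryo proper forms. Embryos were moved to new medium on day 5 after fertilization with either PD0325901, which blocks the kinase MEK and with it the MAPK pathway (ICM-PD), or its solvent DMSO (ICM-DMSO), and ICMs were cut free with needles from blastocysts of day 9. Each of 4 two-colour arrays, 2 per group, held 1 ICM sample and 1 common reference, a pool of RNA from whole blastocysts, so that every value is a log2 ratio of ICM over pool. In replicate a of each group the sample carried Cy3 and in replicate b Cy5. Each sample pooled the cells of many embryos, and the authors' text states that some trophectoderm cells stay attached to a dissected ICM. The authors' text calls the 2 samples of a group biological replicates, and the labels do not say which cultures or collections they came from.

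In the type I pathway, interferon binds IFNAR1 and IFNAR2, kinases at the receptor phosphorylate transcription factors such as STAT2, and STAT2 acts with IRF9 in the nucleus to start transcription. The induced proteins attack viruses at many steps, warn of foreign RNA and DNA, tag proteins with the ubiquitin-like ISG15, and raise antigen presentation. In cattle and other ruminants the pathway has a further role, since the trophectoderm, the outer layer of the blastocyst, secretes interferon tau, the signal by which the mother recognises pregnancy.

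The median raw signal of the ICM samples was 167 and 175 on the ICM-DMSO arrays and 110 and 133 on the ICM-PD arrays. Negative control spots had medians from 24.3 to 26.9 and, as 95th percentile, 27.7 and 27.1 on the ICM-DMSO arrays but 48.0 and 32.9 on the ICM-PD arrays. ICM-PD replicate a stood apart in the quality of its spots. There the pixels of 35.6% of all spots tested had an SD above 40% of their mean, against 8.96% on ICM-PD replicate b and 0.314% and 0.0939% on the ICM-DMSO arrays. The label ICM was checked against markers of embryonic cell types. *NANOG*, a factor of pluripotent cells, had log2 ratios of 1.39, 1.32, 2.72 and 2.66 (ICM-DMSO a and b, ICM-PD a and b), and *SOX2* and *PRDM14* were also above the pool on all arrays. The fourth measured factor of this kind, *SALL4*, had ratios of both signs, at -0.04, 0.14, 0.00 and 0.12. Of 8 measured markers of the hypoblast, the other cell type of the ICM, 0 were above the pool on all arrays. One of them, *GATA6*, was below it throughout, at -0.19, -0.12, -0.81 and -0.61, and 7 had both signs. Of 12 measured trophectoderm markers 7 were below the pool on all arrays, and 1, the keratin *KRT7*, was above it on all arrays.

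The 39 genes had medians near those of the whole array. Their median log2 ratio to the pool was -0.01 in ICM-DMSO and 0.00 in ICM-PD, against 0.01 and 0.01 for all named genes, and their median difference of ICM-PD minus ICM-DMSO was 0.02, against 0.01. Beneath these medians stood a small number of genes far from 0. *IRF1*, a transcription factor, and *HERC5*, the ligase that attaches ISG15, were the 2 genes highest over the pool, and both were higher in each ICM-PD array than in each ICM-DMSO array. *MX1*, a GTPase that blocks viruses, and *USP18*, the protease that removes ISG15 and restrains the receptor, were the 2 genes lowest against the pool, and both were lower in each ICM-PD array than in each ICM-DMSO array. No gene of the array passed the test of ICM-PD against ICM-DMSO (adjusted p below 0.05 by limma with Benjamini-Hochberg adjustment over 43653 probes), so 0 of the 39 did, against a background of 0.0%.

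**Figure D1:**
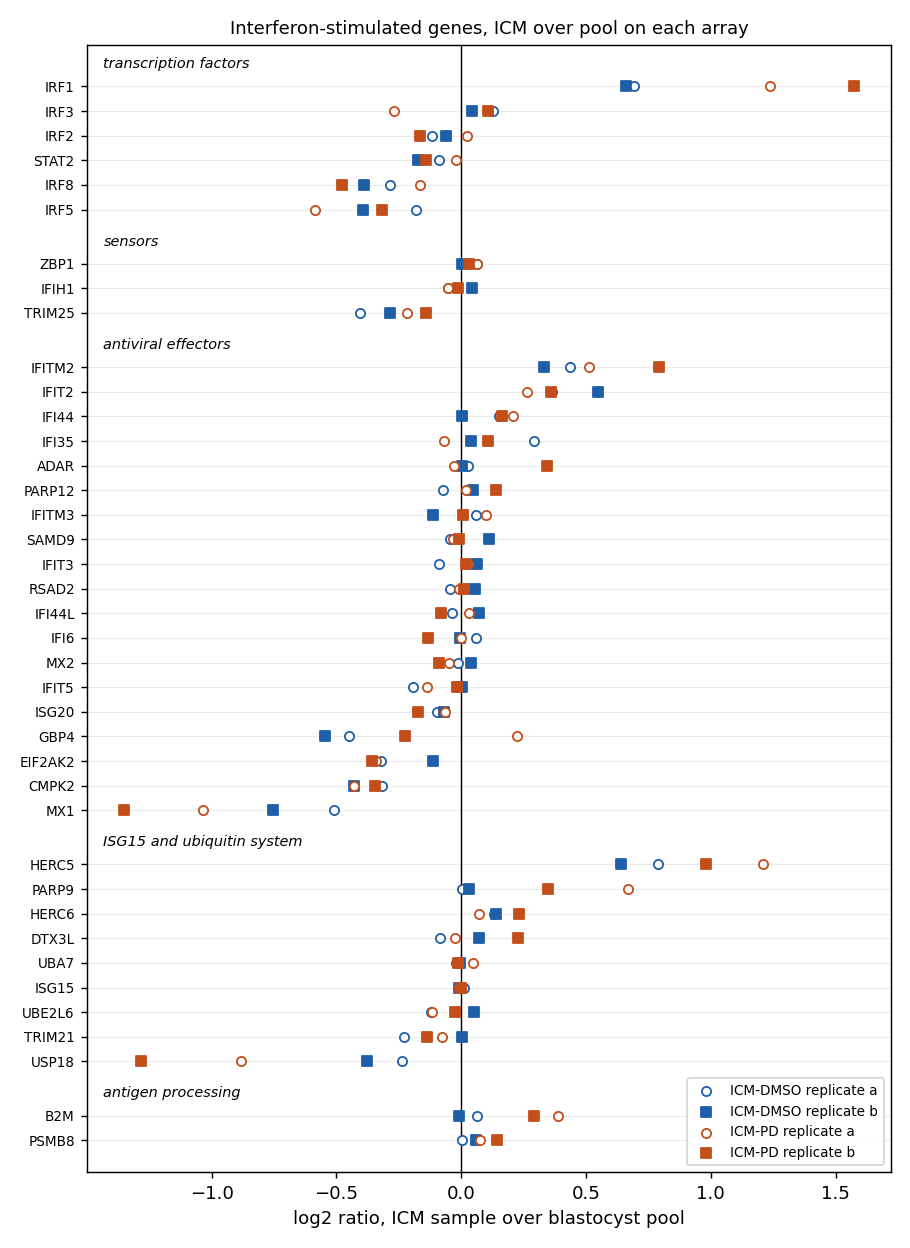
Log2 ratio of ICM sample over blastocyst pool (x axis) for each of the 39 genes (rows), grouped by role, with 1 point for each of the 4 arrays and a vertical line at 0, the level of the pool. *IRF1* and *HERC5* lie to the right on every array, *MX1* and *USP18* to the left, and *ISG15* sits on the line on every array.

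Against the pool, 9 of the 39 genes (23.1%) were above 0 on all 4 arrays, where 15.6% of all named genes were. They were *IRF1*, *HERC5*, *IFITM2*, *IFIT2*, *PARP9*, *HERC6*, *IFI44*, *PSMB8* and *ZBP1*. Of these, *IFI44*, *PSMB8* and *ZBP1* each had an ICM-DMSO value close to 0, at 0.001, 0.003 and 0.004. The count was 7 without background correction, 6 with the mean of the local background and 6 with each array centred on its median. The share over all named genes was not taken for those settings. Another 9 (23.1%) were below 0 on all 4 arrays, where 15.8% of all named genes were. These were *MX1*, *USP18*, *CMPK2*, *IRF5*, *IRF8*, *EIF2AK2*, *TRIM25*, *STAT2* and *ISG20*. Of these, *STAT2* had 1 array without usable signal, as given with the gene. The second probes of *STAT2* and *TRIM25* were above the pool in ICM-DMSO. The other 21 genes had both signs. These ratios compare samples with 1 reference and carry no test. In RNA of whole tissue pieces, fewer cells of a type and less RNA per cell cannot be told apart.

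Of the transcription factors, 6 of 8 were measured. *IRF1*, which drives many interferon-stimulated genes and is itself induced by interferon gamma, had log2 ratios of 0.69 and 0.66 in ICM-DMSO and 1.24 and 1.57 in ICM-PD. All arrays were above the pool, and the groups did not overlap. The raw signals showed the same order, at 283 and 258 in ICM-DMSO and 407 and 421 in ICM-PD, although the ICM-PD arrays were dimmer in general. The log2 difference was 0.73 (SE 0.12), or 1.66-fold, with an unadjusted p of 0.00360 and an adjusted p of 0.312 (limma). A second, dim probe of *IRF1*, at 1.95 times the negative control median, gave -0.07 (SE 0.079). With the mean of the local background in place of its median, the difference of *IRF1* shrank to 0.33, and as the mean of both probes it was also 0.33. It was 0.88 without background correction, 0.60 with median centring and 0.87 in the authors' processed ratios.

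*IRF5*, a factor of Toll-like receptor signalling, was below the pool on every array, with log2 ratios of -0.18, -0.39, -0.59 and -0.32 (ICM-DMSO a and b, ICM-PD a and b). *IRF8*, best known from myeloid and dendritic cells, was likewise below the pool throughout, at -0.28, -0.39, -0.16 and -0.48. For both genes the groups overlapped, with differences of -0.16 (SE 0.14) and 0.02 (SE 0.088). *STAT2*, a factor of the type I pathway, had ratios of -0.09, -0.17, -0.02 and -0.14 and a difference of 0.05 (SE 0.071). The value of ICM-PD replicate a carries no information, since the raw ICM signal there was 18.3, below the negative controls of that array, against 366 to 550.4 on the other arrays. A second *STAT2* probe, at 3.47 times the negative control median, had ratios of 0.07, 0.17, -0.08 and -0.33. Its difference was -0.32 (SE 0.11, unadjusted p = 0.0490 by limma), opposite in sign to the first. *IRF2*, which can repress the genes that IRF1 activates, had a difference of 0.02 (SE 0.093), and *IRF3*, which starts interferon production after virus sensing, one of -0.17 (SE 0.14). On ICM-PD replicate a the spots of *STAT2*, *IRF2*, *IRF3* and *IRF8* all had pixel SDs above 40% of the mean. Without that array, in a fit with no dye term, the difference was -0.01 for *STAT2*, -0.07 for *IRF2*, 0.02 for *IRF3* and -0.14 for *IRF8*. Each had the opposite sign. Between the replicate b arrays of the groups, which share the dye, it was 0.03, -0.10, 0.07 and -0.09. There the sign of *STAT2* did not turn.

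Of the sensors, 3 of 6 were measured. *TRIM25*, a ubiquitin ligase that activates the RNA sensor encoded by *DDX58*, had log2 ratios of -0.41 and -0.29 in ICM-DMSO and -0.22 and -0.14 in ICM-PD. The values were below the pool on all arrays and did not overlap between groups, with a difference of 0.17 (SE 0.071, adjusted p = 0.558 by limma). Its second probe, at 9.74 times the negative control median, pointed the other way, with ratios of 0.21 and 0.19 in ICM-DMSO, 0.00 and -0.01 in ICM-PD and a difference of -0.20 (SE 0.071). For *TRIM25* neither the side of the pool nor the direction of the difference can therefore be given. *ZBP1*, a sensor of left-handed nucleic acid helices, had ratios between 0.00 and 0.06 on all arrays and a difference of 0.01 (SE 0.071). *IFIH1*, which senses long double-stranded RNA, had ratios between -0.05 and 0.04 and a difference of -0.03 (SE 0.072), at 3.42 times the negative control median.

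Of the antiviral effectors, 19 of 27 were measured. *MX1* had log2 ratios of -0.51 and -0.75 in ICM-DMSO and -1.04 and -1.35 in ICM-PD. The raw ICM signal was 253 and 210.4 in ICM-DMSO and 80.1 and 80.9 in ICM-PD, whereas the pool on the same spots gave 347, 403, 387 and 244. The ICM-PD signals were only 3.09 and 3.01 times the negative control median, under the limit of 4 used here for dim genes. The ICM-PD arrays were also dimmer in general. Every array was below the pool, and the groups did not overlap. The difference was -0.56 (SE 0.073), a level 1.48-fold higher in ICM-DMSO, with an unadjusted p of 0.00168 and an adjusted p of 0.283 (limma). Its size depended on the background step, since it was -0.94 without background correction and 0.01 with the mean of the local background. The other 2 probes of *MX1*, at 6.37 and 2.21 times the negative control median, had differences of 0.13 (SE 0.14) and 0.16 (SE 0.091). Only 1 of 3 probes of *MX1* thus showed the lower value.

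*MX2*, the neighbour of *MX1* on its chromosome and a related GTPase, had ratios of -0.01 and 0.04 in ICM-DMSO and -0.05 and -0.09 in ICM-PD, with a difference of -0.08 (SE 0.074). *GBP4*, a guanylate-binding protein, was bright, at 161 times the negative control median, and had ratios of -0.45 and -0.54 in ICM-DMSO but 0.22 and -0.23 in ICM-PD. The groups did not overlap, with a difference of 0.50 (SE 0.11, 1.41-fold, adjusted p = 0.368 by limma). The spot was uneven on ICM-PD replicate b, with a pixel SD of 64.0% of the mean. In fits with no dye term the difference was 0.27 without ICM-PD replicate a and 0.72 without ICM-PD replicate b. Between the replicate a arrays of the groups it was 0.67, and between the replicate b arrays 0.32. With each array centred on its median in place of loess it was 0.27. The dimmer probes of *GBP4* gave differences of 0.02 (SE 0.12) and 0.04 (SE 0.075), and the mean of the probes gave 0.19.

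Proteins of the IFITM family sit in membranes and stop viruses from fusing with the cell. *IFITM2* was above the pool on all arrays, with log2 ratios of 0.44 and 0.33 in ICM-DMSO and 0.51 and 0.79 in ICM-PD. The difference was 0.27 (SE 0.12, 1.20-fold, adjusted p = 0.578 by limma), the groups did not overlap, and the second probe gave 0.21 (SE 0.13). Here too the background step mattered, with differences of 0.44 without correction and 0.03 with the mean of the local background. *IFITM3* was measured by 3 bright probes that differed in sign. The brightest, at 86.0 times the negative control median, had a difference of 0.08 (SE 0.074). The other 2, at 55.7 and 35.4 times, had differences of -0.27 (SE 0.078, unadjusted p = 0.0265 by limma) and -0.21 (SE 0.071, unadjusted p = 0.0410 by limma). Of the 3, the dimmest alone was above the pool on all arrays, at 0.56, 0.50, 0.33 and 0.31. Members of this family are alike in sequence, and which transcripts each probe bound is not known from the files.

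The IFIT proteins bind foreign RNA. *IFIT2* was above the pool on every array, with ratios of 0.36 and 0.55 in ICM-DMSO and 0.26 and 0.36 in ICM-PD, and its difference was -0.14 (SE 0.074). The groups were barely apart, with 0.359 in ICM-PD replicate b and 0.362 in ICM-DMSO replicate a. On ICM-PD replicate a the spot of *IFIT2* had a pixel SD of 92.3% of the mean. Without that array, in a fit with no dye term, the difference of *IFIT2* was -0.10. Between the replicate b arrays of the groups it was -0.19. *IFIT3*, its neighbour on the chromosome, lay at 1.67 times the negative control median with ratios between -0.09 and 0.06, and *IFIT5* had ratios between -0.19 and 0.00. *EIF2AK2*, the kinase that halts translation when it binds double-stranded RNA, was below the pool throughout, at -0.32, -0.11, -0.34 and -0.36. A second *EIF2AK2* probe was also below the pool on each array and had a difference of -0.16 (SE 0.091), beside -0.13 (SE 0.090) for the first.

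*CMPK2*, a mitochondrial nucleotide kinase, was below the pool by nearly the same amount on all arrays, at -0.32, -0.43, -0.43 and -0.35, with a difference of -0.01 (SE 0.086). Its neighbour *RSAD2*, the antiviral enzyme viperin, could not be compared with it, since *RSAD2* lay at 1.31 times the negative control median and below its 95th percentile on both ICM-PD arrays. *IFI44* was above the pool on all arrays with ratios from 0.00 to 0.21. *IFI35* and *IFI6* had differences of -0.15 (SE 0.13) and -0.09 (SE 0.073), and the groups of both overlapped. The effectors *ADAR*, *SAMD9*, *PARP12*, *ISG20* and *IFI44L* had differences between -0.06 and 0.14.

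**Figure D2:**
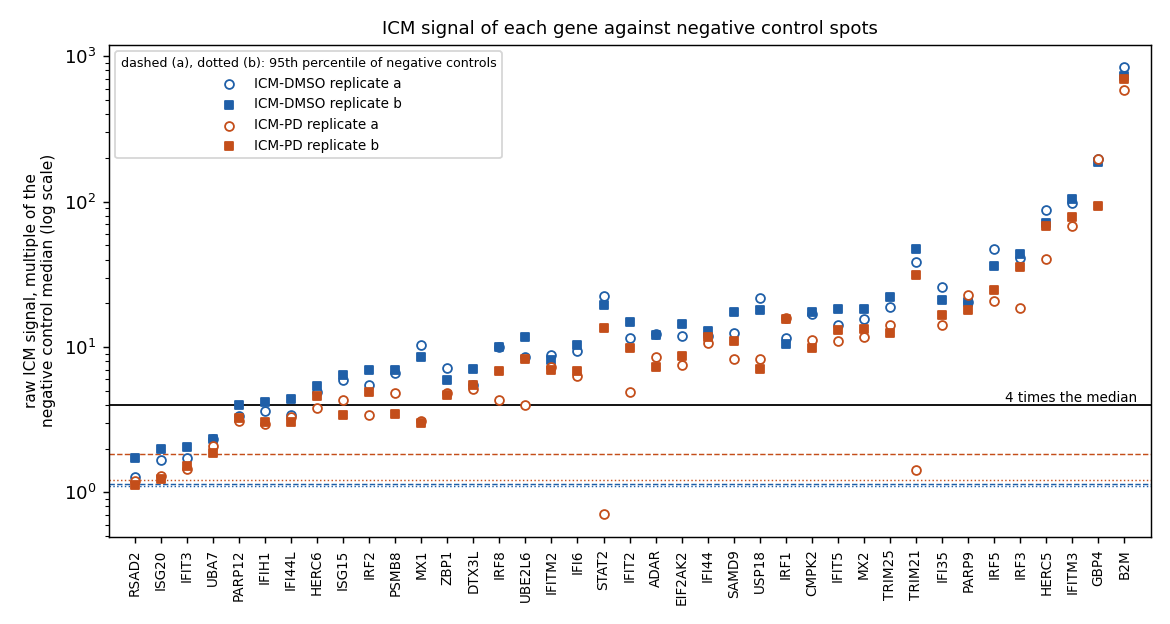
Raw ICM signal of each gene's probe on the 4 arrays, as a multiple of that array's negative control median (y axis, log scale), with genes ordered by their mean. Dashed and dotted lines give the 95th percentile of the negative controls and the solid line 4 times their median, under which *RSAD2*, *ISG20*, *IFIT3*, *UBA7*, *PARP12*, *IFIH1* and *IFI44L* lie as means. The single points of *STAT2* and *TRIM21* near or below 1 are ICM-PD replicate a.

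All 9 listed genes of ISG15 and the ubiquitin system were measured. ISG15 is joined to target proteins by the enzymes UBA7, UBE2L6 and HERC5 in turn and removed again by USP18. *ISG15* itself was at the level of the pool on all arrays, with ratios of 0.01, -0.01, -0.01 and 0.00 and a difference of 0.00 (SE 0.071), on a probe 4.86 times the negative control median. *UBA7* and *UBE2L6* had differences of 0.03 (SE 0.073) and -0.04 (SE 0.073). The *UBA7* probe lay under 4 times the negative control median. On ICM-PD replicate a the spots of *UBA7* and *UBE2L6* had pixel SDs above 40% of the mean. The same held for the spot of *ISG15* on ICM-PD replicate b. Values near 0 on such spots do not show that these genes were unchanged. *HERC5* and *USP18*, the genes for the last step and its reversal, had larger differences, but were not tested against these genes.

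*HERC5* had log2 ratios of 0.79 and 0.64 in ICM-DMSO and 1.21 and 0.98 in ICM-PD. All arrays were above the pool and the groups did not overlap, with a difference of 0.38 (SE 0.073, 1.30-fold, unadjusted p = 0.00708, adjusted p = 0.336 by limma). On ICM-PD replicate a its spot had a pixel SD of 99.1% of the mean. Without that array, in a fit with no dye term, the difference was 0.27, and between the replicate b arrays of the groups 0.34. With median centring it was 0.22. *USP18* had ratios of -0.24 and -0.38 in ICM-DMSO and -0.88 and -1.28 in ICM-PD. Its raw ICM signal was 526 and 441 in ICM-DMSO and 216 and 191 in ICM-PD, against 517 to 673 for the pool. The groups did not overlap, and the difference was -0.78 (SE 0.097), a level 1.71-fold higher in ICM-DMSO, with an unadjusted p of 0.00148 and an adjusted p of 0.283 (limma). The second *USP18* probe, nearly as bright at 10.8 times the negative control median, gave -0.82 (SE 0.085). The dimmest probe, at 2.43 times, gave -0.12 (SE 0.071). With the mean of the local background the first probe gave -0.39. It gave -0.93 without background correction, -0.93 with median centring and -0.96 in the authors' processed ratios. The mean of the probes gave -0.57.

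*PARP9* and *DTX3L* are neighbours on the chromosome, and their proteins form a complex that modifies histones and viral proteins. *PARP9* was at the level of the pool in ICM-DMSO, with ratios of 0.00 and 0.03, and above it in ICM-PD, with 0.67 and 0.35. The difference was 0.49 (SE 0.11, 1.41-fold, adjusted p = 0.367 by limma). The dimmer probes of *PARP9*, at 3.41 and 1.00 times the negative control median, gave 0.09 (SE 0.073) and 0.00 (SE 0.071). The difference of *PARP9* was 0.32 with median centring and 0.19 as the mean of its probes. For *DTX3L* the difference was 0.11 (SE 0.074), and the groups overlapped. *HERC6*, next to *HERC5*, was above the pool on all arrays, with ratios of 0.13, 0.14, 0.07 and 0.23, and had a difference of 0.02 (SE 0.080). The spot of *TRIM21*, a receptor for antibody inside the cell, gave a raw ICM signal of 37.1 on ICM-PD replicate a and of 842 to 1149.8 on the other arrays, so that its difference of 0.01 (SE 0.10) rests in part on a spot at the level of negative controls. Whether neighbouring genes differed from each other was not tested.

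Of antigen processing, both listed genes were measured. *B2M*, the light chain of class I histocompatibility molecules, was the brightest of the 39 genes, at 709 times the negative control median. Its log2 ratios were 0.06 and -0.01 in ICM-DMSO and 0.39 and 0.29 in ICM-PD. The groups did not overlap, and the difference was 0.31 (SE 0.071, 1.24-fold, unadjusted p = 0.0125, adjusted p = 0.365 by limma). It was 0.13 with median centring and 0.16 as the mean of its probes. *PSMB8*, a catalytic subunit of the immunoproteasome, had ratios of 0.00 and 0.06 in ICM-DMSO and 0.07 and 0.14 in ICM-PD, with a difference of 0.08 (SE 0.071).

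**Figure D3:**
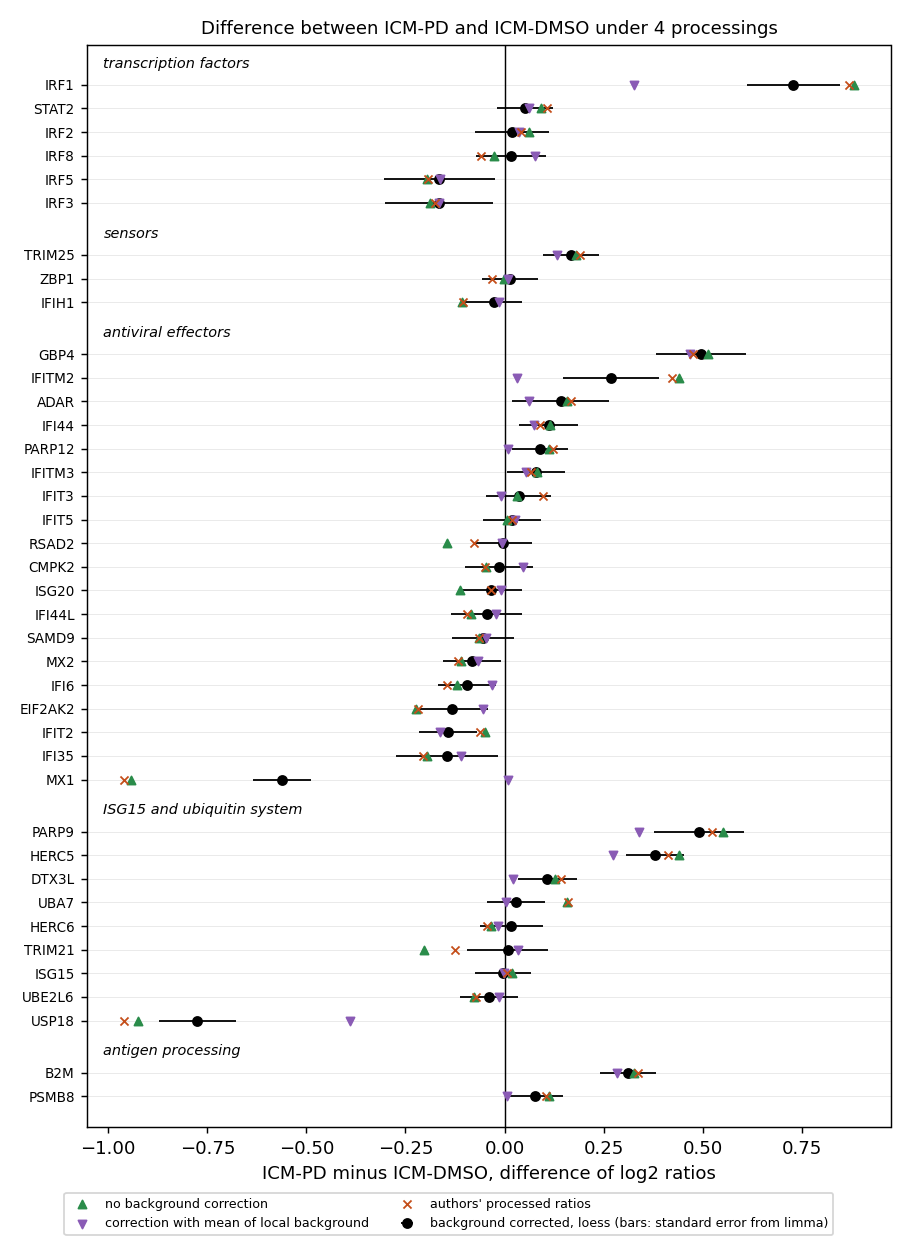
Difference of log2 ratios, ICM-PD minus ICM-DMSO (x axis), for each gene (rows, by role). Black points with bars give the values of the text with the standard error from limma, and other symbols give the same difference without background correction, with the mean of the local background, and in the authors' processed ratios. For *MX1* the values spread from -0.96 to 0.01, whereas for *B2M*, *GBP4* and *ISG15* these 4 values lie close together.

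Across the 39 genes, ICM-PD and ICM-DMSO differed by less than 0.2 on the log2 scale in 31 and by more in 8, and 22 differences were positive and 17 negative. At an unadjusted p under 0.05, 5 genes (12.8%) were higher in ICM-PD, *IRF1*, *HERC5*, *B2M*, *PARP9* and *GBP4*, where 8.79% of all named genes were. The 2 genes (5.13%) on the lower side were *USP18* and *MX1*, where 5.43% of all named genes were. With each array centred on its median in place of loess, 3 of the 39 (7.69%) were higher and 3 (7.69%) lower, and over all named genes the split turned from 1103 higher and 681 lower to 297 (2.37%) and 1797 (14.3%). Arrays of the groups did not overlap for 9 genes (23.1%) higher in ICM-PD, against 20.0% of all named genes, and for 5 genes (12.8%) lower in ICM-PD, against 17.5%. The lower 5 were *USP18*, *MX1*, *MX2*, *EIF2AK2* and *IFIT2*. In 19 genes the difference had the same sign in the Cy3 pair and in the Cy5 pair of arrays, and in 20 it did not. With 1 residual degree of freedom per probe, a p above the threshold does not show that the levels were the same.

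Markers of cell types were compared between the same groups. None passed the adjusted threshold. At an unadjusted p under 0.05 (limma), 8.79% of all named genes were higher in ICM-PD and 5.43% lower. Of 8 measured hypoblast markers, 7 had a negative difference, with a median of -0.30 and 4 at an unadjusted p under 0.05 (limma), among them *FST* at -1.27 and *GATA6* at -0.55. The 12 trophectoderm markers had a median difference of 0.05, with 7 positive. At an unadjusted p under 0.05 (limma) 2 of them were higher, *TFAP2A* at 0.47 and *PAG8* at 0.30, and 1 was lower, *GATA2* at -0.52. The 7 leukocyte markers had a median of -0.04, with 3 positive and 0 at that threshold. All 4 measured epiblast markers had a positive difference, with a median of 0.18 and 2 at an unadjusted p under 0.05 (limma), *NANOG* at 1.34 and *SOX2* at 0.29. Of 5 measured markers of cumulus and granulosa cells, which surround the oocyte, 4 were positive, with a median of 0.20 and 3 at an unadjusted p under 0.05 (limma), *FSHR* at 0.55, *CYP19A1* at 0.26 and *STAR* at 0.20. The ratios of *STAR* followed the dye, at -0.67 (ICM-DMSO) and -0.45 (ICM-PD) in replicate a and 0.75 and 0.93 in replicate b. The groups of *STAR* therefore overlapped. Further markers in the counts above followed the dye in the same way, among them *AMH* (cumulus and granulosa), *CD79A* (leukocyte) and *TFAP2C* (trophectoderm). Their ratios were below the pool in replicate a and above it in replicate b of both groups. The study reported changes of *FST*, *GATA6* and *NANOG* on these same arrays, so their values here are not independent evidence. The part of these cell types in the values of the interferon-stimulated genes was not tested.

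Effectors and the genes upstream of them were set side by side. The 30 effectors, of the antiviral, ISG15 and antigen groups, had median log2 ratios of -0.03, 0.02, 0.00 and 0.00 (ICM-DMSO a and b, ICM-PD a and b), close to the medians of all named genes. The 9 sensors and factors had medians of -0.09, -0.06, -0.05 and -0.14, and so lay lower on each array with the probes used. Among so few genes a median rests on single probes. The one of ICM-PD replicate b was the value of *TRIM25*, whose second probe had -0.01 there. The one of ICM-DMSO replicate a was the value of *STAT2*, whose second probe had 0.07 there. The medians of the genes' means over all arrays differed by 0.08 (SD over arrays 0.042, n = 4), and by 0.02 with the mean of the local background. For ICM-PD minus ICM-DMSO the median was 0.01 in effectors and 0.02 in sensors and factors, a gap of 0.00 whose sign changed with the processing.

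The distance from the negative controls limited what could be read for the dimmest genes. A mean ICM signal under 4 times the negative control median was found for 7 of the 39 genes (17.9%), against 21.7% of all named genes. Of these 7, 5 were antiviral effectors. The ratios of all 7 stayed between -0.17 and 0.14 on every array, and 0 of them had groups that did not overlap. Of the 2725 named genes as dim, 410 were without overlap on the higher side and 440 on the lower. With 7 genes the count of 0 cannot be told apart from that share. *RSAD2*, *ISG20* and *IFIT3* were under 2 times the median. A ratio near 0 at such signals gives no information on the transcript. Among the 32 brighter genes, 9 (28.1%) were above the pool on all arrays and 8 (25.0%) below it, where 17.6% and 17.4% of all brighter named genes were. Of the same 32, 5 (15.6%) were higher and 2 (6.25%) lower in ICM-PD at an unadjusted p under 0.05 (limma), where 11.0% and 6.64% of brighter named genes were. Arrays did not overlap for 9 (28.1%) higher and 5 (15.6%) lower, where 21.4% and 17.8% did not.

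**Figure D4:**
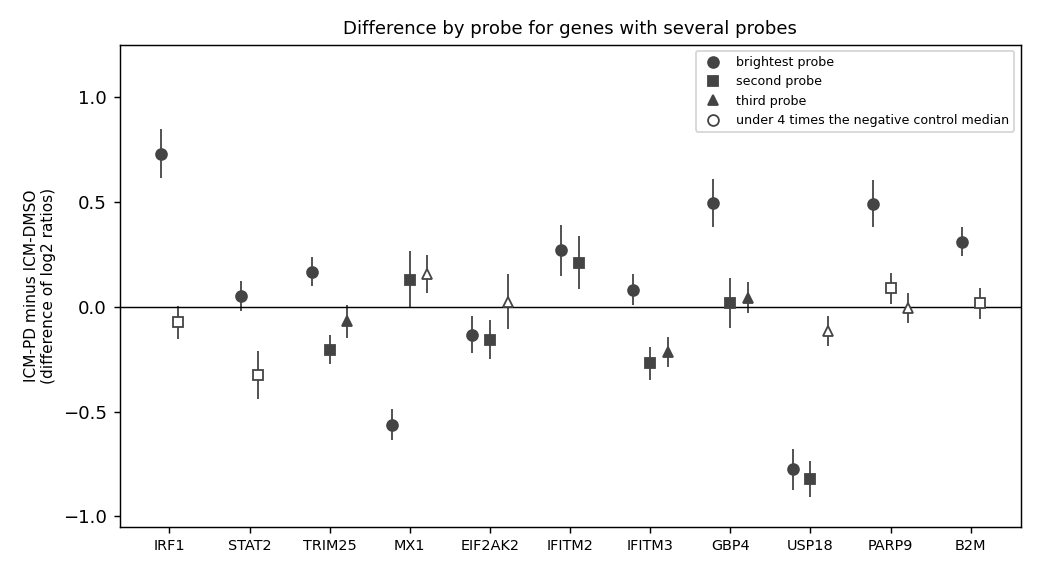
Difference of log2 ratios, ICM-PD minus ICM-DMSO (y axis), for each probe of 11 genes with several probes, with bars for the standard error from limma and open symbols for probes under 4 times the negative control median. Both bright probes of *USP18* lie near -0.8, the probes of *MX1*, *STAT2*, *TRIM25* and *IFITM3* fall on both sides of 0, and the dim probes of *IRF1*, *PARP9* and *B2M* lie near 0.

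Several probes represented 31 of the 39 genes, at most 4 for 1 gene, and in 16 of these genes the probes had differences of both signs. Over all 87 probes, 5 (5.75%) were higher and 7 (8.05%) lower in ICM-PD at an unadjusted p under 0.05 (limma), where 5.5% and 4.63% of all probes tested were. The lower ones included the second probes of *USP18*, *IFITM3*, *TRIM25* and *STAT2*. More than 1 such probe of the same sign was found for *USP18* and *IFITM3*, with 2 probes each.

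Other genes of the pathway were read in the same way. Of 39 listed ligands, receptors and signalling genes, 17 had a probe, and 0 were higher and 1 (5.88%) lower in ICM-PD at an unadjusted p under 0.05 (limma), where 8.79% and 5.43% of all named genes were. That 1 was *IFNGR2*, a chain of the receptor for interferon gamma, with ratios of -0.02 and -0.16 in ICM-DMSO and -0.38 and -0.34 in ICM-PD and a difference of -0.27 (SE 0.085). *IFNAR1* and *IFNAR2*, the receptor of type I interferons, had differences of -0.07 (SE 0.073) and 0.17 (SE 0.084). *STAT3* was above the pool on all arrays, at 0.76, 0.47, 0.50 and 0.91. *SOCS3*, an inhibitor of cytokine receptors, had a difference of -1.33 (SE 0.68) that rests on ICM-PD replicate b alone, where its ratio was -2.78 against values between -0.12 and 0.08 on the other arrays.

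Of interferon genes themselves, *IFNK* and *IFNG* had differences of 0.13 (SE 0.077) and -0.06 (SE 0.087) on dim probes. Probes under the symbols *IFNA16* and *IFNAG*, named here after their values had been seen, had differences of -0.41 (SE 0.074, adjusted p = 0.329 by limma) and -0.04 (SE 0.077). The ratios of *IFNA16* were -0.11 and -0.14 in ICM-DMSO and -0.47 and -0.59 in ICM-PD. Bovine type I interferon genes are near-identical copies, so the transcripts bound by these probes are uncertain. Interferon tau is not analysed here, because its symbols matched no probe name in the annotation used here.

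Of 42 listed further induced genes, 24 had a probe, and 3 (12.5%) were higher and 1 (4.17%) lower in ICM-PD at an unadjusted p under 0.05 (limma), where 8.79% and 5.43% of all named genes were. *PSME1*, a subunit of the proteasome activator PA28, had ratios of 0.55 and 0.46 in ICM-DMSO and 1.53 and 1.83 in ICM-PD, with a difference of 1.18 (SE 0.12, 2.26-fold, adjusted p = 0.270 by limma). Its partner *PSME2* had a difference of 0.40 (SE 0.099), and *PSMB9*, a subunit of the immunoproteasome, one of 0.32 (SE 0.084). The groups of all 3 did not overlap. Over the 24 genes this held for 6 on the higher side and 5 on the lower, where it held for 20.0% and 17.5% of all named genes. *PSMB10*, another subunit of the immunoproteasome, had a difference of -0.04 (SE 0.073), and the peptide transporter *TAP1* one of -0.21 (SE 0.13). The 1 gene lower at an unadjusted p under 0.05 (limma) was *IFI30*, a thiol reductase of lysosomes. It had ratios of -0.48 and -0.67 in ICM-DMSO and -0.91 and -1.10 in ICM-PD and a difference of -0.43 (SE 0.071). *PSME1* was among the genes that the study listed on these same arrays, so its place here is not independent evidence.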

How the data were processed

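Per the file headers, the deposited scanner tables list mean, median and SD of pixel intensity, in both channels, for spots and for the background around them, without normalization. The authors hybridised doubly amplified, labelled cRNA and quantified spots with Imagene. They also deposited log2 ratios, made by loess on mean spot intensities with a gene-specific dye correction. Regression on scanner values gave slopes of -1.04, -1.03, 1.05 and 1.04 of Cy5 over Cy3, so the deposited log2 ratios run ICM over pool. Their column medians were 0.00, 0.02, 0.01 and 0.01 (ICM-DMSO a, ICM-PD a, ICM-DMSO b, ICM-PD b), and how they were centred is unknown.

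In R 4.3.3 with limma 3.58.1, mean intensities were corrected by normexp (offset 50) with the local background median, normalized by loess within arrays and turned to ICM over pool. The 1567 control spots had weight 0 and were not tested. lmFit and eBayes used group and dye terms (1 residual degree of freedom, prior 2.90), two-sided, with Benjamini-Hochberg adjustment over 43653 probes and a threshold of 0.05. Since dye orientation follows the replicate letter, 1 term serves for both dye and replicate block. Deviations of same-letter arrays from group means correlated with r = 0.454 across probes, which are not independent, and the block held 2 pairs. Probe names came from the platform annotation (1 symbol for 27952 probes, several for 0, none for 15701), of which 1830 took newer symbols from RefSeq (assembly ARS-UCD2.0). Neighbouring genes are from RefSeq too, and no coordinates are given. The negative controls were 757 spots of 2 control IDs, recognised by their many copies and lowest signal, since the files do not name control types. The number of arrays limits the precision of all values. The script was tested on simulated data.

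Members and lists were chosen with earlier results of these data known. Genes named with values were all factors and sensors, the 8 highest and 8 lowest against the pool, the 8 with the smallest p in each direction, genes whose probes differ in sign by over 0.5, and interferon genes and receptors. Other genes of the list were added for completeness of each role. Alternatives were the background step, the normalization, the authors' values, the mean of all probes, a filter on dim probes, no block, leaving out each array and, added after seeing the data, the median pixel signal. Promoter motifs and a slide block were planned and not run.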

Additional observations from a re-analysis of the deposited data

How the results depend on the processing

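No interferon-stimulated gene passed the adjusted threshold under the alternatives run, including 0 without the replicate block, except with the authors' values, where 3 (7.69%) did, against 0.957% of all named genes (limma): *IRF1* at 0.87 (adjusted p = 0.0271), *USP18* at -0.96 (0.0153) and *MX1* at -0.96 (0.0316). Over the other alternatives their adjusted p ran from 0.0918, 0.0810 and 0.121 (all without background correction) to 1.00 (without ICM-DMSO replicate a). Without the block the counts at an unadjusted p under 0.05 also stayed at 5 higher and 2 lower. Higher counts were 3 with median centring and 3 with the mean of probes, and 1 to 6 with an array left out. Lower counts were 1 with the background mean and 1 with the mean of probes, and 1 to 3 with an array left out. Below the pool on all arrays were 14 genes in the authors' values and 9 to 15 with an array left out. Fits on 3 arrays had no dye term and took the lone array to vary like the other group. Above the pool on all arrays were 7 genes without background correction, 6 with the background mean and 6 with median centring. With the median pixel signal there were 8, and in the authors' values and with the mean of probes 9. The gap in ratio between effectors and upstream genes was 0.0176 with the background mean. The gap in difference was -0.0136 without background correction, -0.0333 with the background mean, 0.00113 with median centring, 0.0164 in the authors' values, 0.0316 with median pixel signal, 0.0505 with the mean of probes, -0.00494 without dim genes and -0.123 to 0.0272 with an array left out. Under 2 times the negative control median were 3 genes in place of 7.

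The sign of the difference turned under at least 1 alternative for 23 of the 39 genes, of which 20 did so with 1 array left out, and under none of those run for 16, among them *IRF1*, *USP18*, *HERC5*, *GBP4*, *PARP9* and *B2M*. Of genes named by the rule in the methods, signs turned for *CMPK2* (background mean 0.0474, median pixel signal 0.0567, arrays left out -0.0716 to 0.0429), *HERC6* (no correction -0.0345, background mean -0.0166, median centring -0.00242, authors' values -0.0446, arrays left out -0.0621 to 0.0961), *IFI44* (median centring -0.0307), *IFIH1* (median pixel signal 0.00865, arrays left out -0.0740 to 0.0200), *IRF2* (median centring -0.00148, median pixel signal -0.0216, arrays left out -0.0746 to 0.112), *IRF3* (arrays left out -0.354 to 0.0235), *IRF8* (no correction -0.0272, median centring -0.0647, authors' values -0.0588, arrays left out -0.140 to 0.173), *MX1* (background mean 0.00947), *STAT2* (mean of probes -0.136, arrays left out -0.00893 to 0.112), *TRIM25* (mean of probes -0.0350) and *ZBP1* (no correction -0.00113, median centring -0.0458, authors' values -0.0307, median pixel signal -0.00865, arrays left out -0.0176 to 0.0431). The other genes whose sign turned were *IFIT3*, *IFIT5*, *IFITM3*, *ISG20*, *RSAD2*, *SAMD9*, *ADAR*, *IFI44L*, *ISG15*, *UBE2L6*, *DTX3L* and *TRIM21*. The causes were not tested. A slide block was not run because the files name no slide or scan, and promoter motifs were not run because no promoter sequence was used here.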
